A study of Homo sapiens with 10 samples.

Results

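The COUP-TF genes are NR2F1, NR2F2 and NR2F6, the rows of the count table that carry these symbols, and they are 3 of its 31017 genes. They were described in the human ESC line H9 (WA09), grown in Pluripro medium and matrix, and in the NECs (neuroectodermal cells) derived from it and harvested on day 7. All samples come from this single line, so they share 1 genetic background. RNA-seq had 2 biological replicates per cell type, and so did PCHi-C (promoter capture Hi-C), in which fragments cut by the enzyme HindIII are captured if they hold a promoter and their ligation partners are sequenced. ESC replicate 2 of PCHi-C combined technical replicates. The promoter bait of a gene was the captured fragment that holds the gene start, which gave 3 of the 21833 baits in the interaction lists. The family was selected on results of these data, with the ESC and NEC read counts and promoter contacts of its members already known, so their levels and interactions are descriptions and carry no test.

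COUP-TFs are orphan nuclear receptors that bind pairs of AGGTCA-like half-sites, often as repressors, and many of their sites are also bound by retinoic acid and retinoid X receptors. NR2F1 (COUP-TFI) and NR2F2 (COUP-TFII) are induced as the nervous system and neural crest form, and they pattern the cortex, eye, vessels and atria. NR2F6 (EAR2) is a more distant relative that is transcribed in many tissues and is best known from lymphocytes and blood progenitors.

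The baits of NR2F1 and NR2F2 each also hold the start of an antisense long noncoding RNA, which begins inside the gene and runs back across its start, and both genes have a further annotated start. The stretches just before these starts are shown because the promoters of NR2F1 and NR2F2 resemble each other there. RefSeq promoter sequences (GRCh38.p14) matched 2 of the 3 members, not NR2F6. The NR2F1 stretch is chr5:93582972-93583221 of GRCh38.p14 on the plus strand, the 250 bases upstream of the RefSeq start, and the same bases are chr5:92918678-92918927 in GRCh37, the build of the deposited files. Those for NR2F2 were read from GRCh37, plus strand, as the 250 bases before the gene start of the count table (chr15:96868917-96869166) and before the start of the canonical transcript (chr15:96873679-96873928). Capitals mark the motifs AAAGNTCA (a nuclear receptor half-site with an A-rich start), CCAAT and TATAA, searched on both strands.
NR2F1: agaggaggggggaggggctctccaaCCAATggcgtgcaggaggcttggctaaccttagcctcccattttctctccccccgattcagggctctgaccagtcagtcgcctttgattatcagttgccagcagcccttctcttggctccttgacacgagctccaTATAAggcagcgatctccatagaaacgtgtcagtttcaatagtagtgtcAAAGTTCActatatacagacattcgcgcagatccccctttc
NR2F2 gene start: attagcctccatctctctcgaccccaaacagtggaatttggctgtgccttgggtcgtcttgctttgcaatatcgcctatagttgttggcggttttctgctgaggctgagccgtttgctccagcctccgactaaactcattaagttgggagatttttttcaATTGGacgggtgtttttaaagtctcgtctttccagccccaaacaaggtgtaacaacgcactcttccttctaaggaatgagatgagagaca
NR2F2 canonical start: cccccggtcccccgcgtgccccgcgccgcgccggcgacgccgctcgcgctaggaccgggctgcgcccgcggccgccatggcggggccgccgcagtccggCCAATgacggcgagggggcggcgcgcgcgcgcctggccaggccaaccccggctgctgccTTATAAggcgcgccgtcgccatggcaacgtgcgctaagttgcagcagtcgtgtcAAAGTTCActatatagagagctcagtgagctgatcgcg

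NR2F1 and the canonical NR2F2 start each held AAAGTTCA on the plus strand, beginning 41 and 38 bases before the start. A run of 20 bases around it, gtgtcAAAGTTCActatata, was the longest that the 2 windows shared. Among the RefSeq windows it was found only in that of NR2F1, and the windows listed there for NR2F2 precede other starts. Both windows also held CCAAT and, on the plus strand, TATAA, which began 90 bases before the start in NR2F1 and 91 in NR2F2, where it overlaps a match on the minus strand. The gene start window of NR2F2 held CCAAT on the minus strand and neither of the other motifs. Among the 35116 RefSeq windows of the same length, 3.43% held AAAGNTCA, 32.0% held CCAAT and 18.9% held TATAA. These are letter matches, and binding was not measured.

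Some fragments were called from the NR2F1 bait or the NR2F2 gene start bait in both NEC replicates and, as the same fragment, in no ESC replicate. The HindIII end of each is shown with 60 bases of GRCh37, plus strand, and the cut site in capitals. For NR2F1 they were chr5:92245860-92250402 (670 kb upstream, in an exon of LINC02058), chr5:93221372-93230651 (308 kb downstream, in an intron of FAM172A) and chr5:94219134-94223180 (1303 kb downstream, in an intron of MCTP1). For NR2F2 they were chr15:95806673-95820778 (1049 kb upstream) and chr15:95827665-95832075 (1033 kb upstream), both overlapping exons of the noncoding RNA LETR1. Distances are between fragment midpoints. The absence from ESCs holds only for these baits and exact fragments. From the bait with the canonical NR2F2 start, the fragment 1033 kb upstream was also called in ESC replicate 2. The NR2F2 gene start bait called the fragment next to it in that replicate. In ESC replicate 1 the NR2F1 bait called fragments within 10 kb of those 670 kb upstream and 1303 kb downstream.
NR2F1, 670 kb upstream: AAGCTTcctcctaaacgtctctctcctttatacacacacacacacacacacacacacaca
NR2F1, 308 kb downstream: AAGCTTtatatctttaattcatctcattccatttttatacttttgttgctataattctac
NR2F1, 1303 kb downstream: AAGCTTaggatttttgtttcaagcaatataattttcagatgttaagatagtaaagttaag
NR2F2, 1049 kb upstream: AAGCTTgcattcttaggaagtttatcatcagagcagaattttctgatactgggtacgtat
NR2F2, 1033 kb upstream: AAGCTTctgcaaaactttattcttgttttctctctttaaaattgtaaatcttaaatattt

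The GC content of these 5 fragments lay between 33.7 and 40.8%, against 59.1% in the NR2F1 bait and 42.4% in the bait of the NR2F2 gene start.

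The RNA libraries held 19234087 to 25356382 counted reads. Marker lists of 10 genes each were checked against the labels, using the calls defined below. Of the mesendoderm markers 9 were tested, and of the other lists all. Over the 17564 genes tested, 11.4% were called higher in NECs and 9.68% lower. Of the pluripotency markers 8 were lower and none was higher in NECs (median log2 fold change −4.12), and of the neuroectoderm markers 8 were higher and none was lower (5.62). Of the neural crest markers 6 were higher and 1 lower (3.97), and of the mesendoderm markers none was higher and 8 were lower (−2.51), 5 of them without ESC replicate 2. The replicates of a cell type differed in other cell types' markers. The summed level of the neural crest markers was 227 CPM (counts scaled to library size) in NEC replicate 1 and 81.8 in NEC replicate 2, against 131 and 129 in the ESCs. ETS1, the 1 marker of this list called lower, alone gave 106 and 105 CPM in the ESCs and 28.5 and 4.86 in the NECs. The sum is therefore not a measure of neural crest expression in ESCs. The pluripotency markers summed to 1215 and 1813 CPM in the NECs, against 6772 and 7282 in the ESCs, and the mesendoderm markers summed to 92.7 and 221 in the ESCs, against 8.38 and 8.47 in the NECs. The ESC libraries shared 1 sequencing lane and the NEC libraries another, so lane and cell type cannot be told apart.

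NR2F1 and NR2F2 went from at most 2 counts per library in ESCs to between 1869 and 4252 in NECs, while NR2F6 was present in both cell types and lower in NECs. The transcription factor gene NR2F1 (ENSG00000175745, chr5:92919043-92930321, plus strand, GRCh37) had 0 and 2 counts in its ESC libraries and 4252 and 3103 in its NEC libraries. These are 0 and 0.0809 CPM against 199 and 126 CPM, with library sizes corrected by TMM. The ESC libraries were at the floor of detection and the NEC libraries were far above it, with no overlap. The means were 0.0405 ± 0.0572 and 162 ± 51.8 CPM (SD, n = 2).

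NR2F2 (ENSG00000185551, chr15:96869167-96883492, plus strand), which patterns veins, atria and the ventral forebrain, had 1 and 2 counts in ESCs and 2405 and 1869 in NECs. Its levels were 0.0530 and 0.0809 CPM in ESCs and 113 and 75.8 CPM in NECs, with means of 0.0669 ± 0.0197 and 94.2 ± 26.0 (SD, n = 2). The groups again did not overlap. With 2 and 3 counts over both ESC libraries, the ratio of NEC to ESC depended on few molecules: it was 3482 for NR2F1, with a counting interval at 95% of 963.7 to 28760, and 1349 for NR2F2, with an interval of 461.3 to 6544. These intervals cover counting error only. The fitted log2 fold changes (NEC minus ESC) were 11.62 (SE 0.49) for NR2F1 and 10.31 (SE 0.39) for NR2F2. The value for NR2F1 depended on 1 library: it was 14.78 without ESC replicate 2, the only ESC library with a read, and 10.86 without ESC replicate 1.

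NR2F6 (ENSG00000160113, chr19:17342694-17356151, minus strand) had 2018 and 2946 counts in ESCs and 1281 and 1556 in NECs. In CPM these were 107 and 119 against 59.9 and 63.1, and the 2 ESC libraries were both above the 2 NEC libraries. The mean was 113 ± 8.67 CPM in ESCs and 61.5 ± 2.21 in NECs (SD, n = 2), which is 1.85 times higher in ESCs by summed counts (counting interval 1.76 to 1.94). Its log2 fold change of −0.88 (SE 0.10) did not reach the size of 1.5 that the study required for a call.

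By that call (edgeR's quasi-likelihood test with Benjamini-Hochberg adjustment, p below 0.05 and a log2 fold change beyond ±1.5), 2 of the 3 genes were higher in NECs and none was lower. Over the 17564 genes tested, 11.4% were called higher and 9.68% lower, 21.0% in all. Nothing is read from this count or from the lack of overlap between groups, because the genes were chosen with these values known. The share of all genes whose groups did not overlap was not computed. In bulk RNA, fewer cells that express a gene and less RNA per cell cannot be told apart.

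To compare the genes with each other, levels were divided by the length of their merged exons. NR2F6 in ESCs had 40.3 and 44.9 CPM per kb, NR2F1 in NECs 45.4 and 28.7, NR2F6 in NECs 22.6 and 23.8, and NR2F2 in NECs 17.4 and 11.7. In the plot of per-length levels these 4 stand in that order by mean. The first pair of neighbours overlapped in their libraries and the others did not, while NR2F1 and NR2F2 in ESCs, neither above 0.0185 CPM per kb, overlapped at the bottom. NR2F6 was thus 99.9% or more of the summed COUP-TF level per length in each ESC library, and 26.4 and 37.0% in the NEC replicates. NR2F1 made up 53.2 and 44.7% of it in the NECs, and NR2F2 20.4 and 18.2%.

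**Figure D1:**
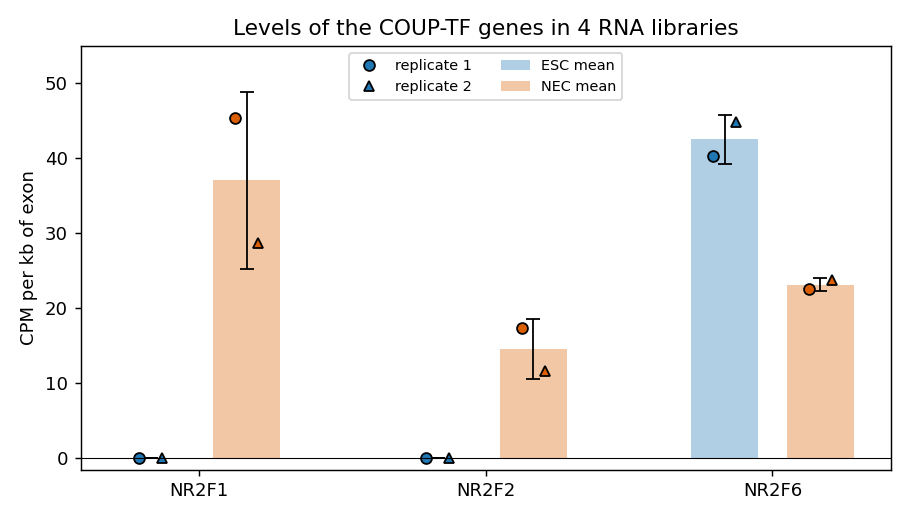
Levels of NR2F1, NR2F2 and NR2F6 in CPM per kb of merged exon; points are single libraries (circle, replicate 1; triangle, replicate 2), bars the mean of 2 replicates and whiskers 1 SD. NR2F1 and NR2F2 lie at 0 in ESCs on this scale, and NR2F6 has a mean of 42.6 in ESCs and 23.2 in NECs.

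Both NR2F1 and NR2F2 had their higher NEC level in replicate 1, whereas NR2F6 differed little between them. NEC replicate 1 was also the library with the higher summed neural crest markers (227 against 81.8 CPM) and the lower pluripotency markers (1215 against 1813 CPM). The part of these markers in the levels of NR2F1 and NR2F2 was not tested.

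The genes with the most similar pattern were found by the Euclidean distance of log2 CPM over the 4 libraries, with a pseudocount of 0.5. For NR2F1 they were NR2F2 itself (1.11), POU3F2 (1.24) and MEIS2 (1.46), neural transcription factor genes. For NR2F2 they were MMRN1 (0.49), which encodes a platelet and endothelial glycoprotein, MEIS2 (0.74) and POU3F2 (0.99). MMRN1 had no count in either ESC library and 1847 and 1664 in the NECs, at least 549-fold higher against a floor of 3 counts per library. The nearest genes to NR2F6 were SEC23IP (0.07), DDX39A (0.08) and RALA (0.09), with a membrane traffic, an RNA helicase and a GTPase product. NR2F1 and NR2F2 were chosen with their levels in these libraries known, so nothing is read from the nearness of the pair.

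NR2F1-AS1 (RP11-65F13.2) had 12 and 13 counts in ESCs and 448 and 340 in NECs, with a log2 fold change of 4.90 and SE of 0.32 (adjusted p = 8.26e-05). It rose with NR2F1 in the same replicate order, but it overlaps NR2F1 on the other strand and the reads were counted without strand, so the 2 genes' reads in the overlap cannot be told apart. NR2F2-AS1 (RP11-327J17.3) had 0 and 0 counts in ESCs and 62 and 44 in NECs (adjusted p = 0.000809), at least 16.7-fold higher against the floor. It overlaps the first part of NR2F2 on the other strand, so the same limit holds for its counts. Here too NEC replicate 1 was the higher library.

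Within 1 Mb of the gene starts the 3 loci differed in gene content. Around NR2F1 there were 10 genes, of which 3 were tested, 1 was called higher (NR2F1-AS1) and 1 lower, and 4 had no count in any library. The one that fell, CTC-458G6.4 upstream of NR2F1, had 184 and 332 counts in ESCs and 0 and 0 in NECs, at least 88.5-fold lower (adjusted p = 0.000116). FAM172A, whose introns hold NR2F1 contacts, had 11.4 ± 0.471 CPM in ESCs and 29.1 ± 5.91 in NECs (SD, n = 2) and was not called, at a log2 difference of 1.36 (SE 0.17).

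Around NR2F2 there were 18 genes, 12 of them without a count in any library, and 3 were tested. Both genes called higher were noncoding: NR2F2-AS1 and LETR1 (CTD-2536I1.1), which regulates lymphatic endothelial cells and starts about 1 Mb upstream. LETR1 had 0 and 0 counts in ESCs and 49 and 24 in NECs (adjusted p = 0.0027), at least 11.7-fold higher. The LETR1 gene body holds the NR2F2 contacts that are listed with sequence above. NR2F6 lay among 52 genes, 43 of them tested, of which 4 were higher (CPAMD8, BST2, TMEM221 and SLC27A1) and 2 lower (USHBP1 and IFI30). BST2, an interferon-inducible membrane protein gene, had the largest of these rises, from 5.99 and 3.64 CPM in ESCs to 64.3 and 51.3 in NECs. Over all genes tested, 11.4% were called higher and 9.68% lower, and nothing is read from the counts of called neighbours around the 3 genes.

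PCHi-C lists give, for each pair of fragments, a CHiCAGO score, which grows as the distance-weighted p-value shrinks, and hold pairs that score at least 12. A promoter-interacting region (PIR) is the fragment that a bait was called to contact. No read numbers are listed, and the depth of a call is therefore unknown. Replicates shared few calls over all baits: 14.5% of the union was called in both ESC replicates and 13.1% in both NEC replicates.

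NR2F1 and NR2F2 had more PIRs in the merged NEC list than in the merged ESC list, and NR2F6 had none in either. The NR2F1 bait (chr5:92913978-92921728) had 5 PIRs in the merged ESC list and 11 in the merged NEC list. Single ESC replicates gave 9 and 6 PIRs and single NEC replicates 10 and 9, and these ranges touch. Of the 31 fragments called in any list 26 were called in exactly 1 replicate.

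The NR2F2 bait (chr15:96854564-96871122) had 3 merged PIRs in ESCs against 9 in NECs. Each ESC replicate gave 3, and the NEC replicates gave 5 and 9, so the cell types did not overlap here. Over the 21768 baits with a call, 13.2% had more PIRs in both NEC replicates than in both ESC replicates, and 12.9% had fewer. All 9 NEC PIRs of this bait lay upstream of the gene.

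The canonical NR2F2 transcript starts in the next bait (chr15:96872100-96878904), which the rule did not take and which was added after its values were seen. It had 7 merged PIRs in ESCs against 24 in NECs. The ESC replicates gave 2 and 3, and the NEC replicates gave 15 and 17. The difference was the largest of these baits, and the groups did not overlap. Of the 9 NEC PIRs of the gene start bait 7 were also PIRs of this bait, 77.8% of the former list and 29.2% of the latter. The 2 baits hold starts of the same gene, so their calls are not independent.

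**Figure D2:**
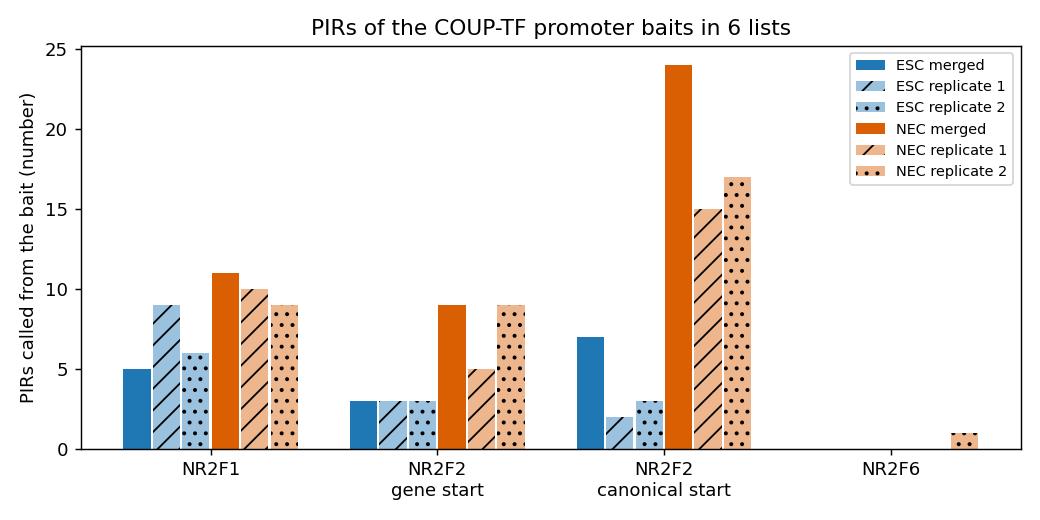
Number of PIRs called from each promoter bait in the merged list of each cell type (solid bars) and in single replicates (hatched bars). The canonical NR2F2 start has 24 in merged NECs and 7 in merged ESCs, and NR2F6 has a single call, in NEC replicate 2.

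No PIR fragment of the NR2F1 bait, and none of the NR2F2 gene start bait, was in both merged lists. When fragments within 10 kb were counted as shared, 4 of 11 NEC PIRs of NR2F1 and 2 of 9 of NR2F2 had an ESC PIR nearby. The merged ESC lists held only 5 and 3 PIRs of these baits to match. The share of PIRs found in both merged lists, exactly or within 10 kb, was not computed over all baits. Even replicates of the same cell type shared only 14.5% (ESC) and 13.1% (NEC) of the union of their calls over all baits. Those shares count exact fragments and are not the measure used within 10 kb. Nothing particular to NR2F1 or NR2F2 is therefore read from the overlap between cell types. The plot of scores by distance shows where the calls lie. For NR2F1, merged calls of both cell types fell within MCTP1 downstream, and the single merged ESC call upstream lay at 658 kb. From the canonical NR2F2 bait 6 PIRs were shared as the same fragment, 85.7% of the ESC list and 25.0% of the NEC list.

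The highest NR2F1 score in NECs was 21.76, for the FAM172A intron fragment 308 kb downstream, with 15.48 and 15.44 in the replicates. This fragment is itself a bait, and from its own end the contact with NR2F1 scored 22.68 in the merged NECs and 15.93 and 18.07 in the replicates, with no call in ESCs. The MCTP1 intron fragment 1303 kb downstream scored 19.68 (19.72 and 16.46 in the replicates). The LINC02058 fragment 670 kb upstream scored 18.16 (17.36 and 13.74). All 3 were therefore called in both NEC replicates and in no ESC list. In ESCs the highest score was 15.62, for chr5:92954641-92959010, a fragment 39 kb downstream that overlaps exons of FAM172A and MIR2277, which was called in ESC replicate 2 (13.25) and not in ESC replicate 1.

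NR2F2's gene start bait had its highest NEC score, 23.56, with the LETR1 fragment 1033 kb upstream, which scored 15.77 and 24.56 in the replicates. From the canonical bait the same fragment had 31.47 in NECs, the highest score among all COUP-TF baits, with 23.46 and 21.87 in the replicates. It also scored 12.87 in the merged ESC list there, with 15.32 in ESC replicate 2 and no call in ESC replicate 1. From both baits its merged score was thus higher in NECs, and from the gene start bait it was in no ESC list. The other LETR1 fragment, 1049 kb upstream, scored 18.05 (16.76 and 12.41).

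The ESC contact with the highest score from the gene start bait was chr15:96304925-96315789, 552 kb upstream, with 14.86. From the canonical bait that fragment was called in both cell types, with 14.71 in ESCs and 22.78 in NECs. The neighbouring fragment chr15:96301769-96304854 scored 29.83 in NECs from the canonical bait, with 17.7 and 23.22 in the replicates, and was in no ESC list. A bait about 0.6 Mb upstream, chr15:96278762-96289157, called the canonical NR2F2 fragment in all 4 replicates, with 17.12 and 18.7 in ESCs and 21.41 and 18.78 in NECs. This was the only contact of the COUP-TF baits found in every replicate. The ESC contact of the canonical bait with the highest score was a fragment 80 kb downstream (18.8), called in ESC replicate 2 only.

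The other PIRs of the canonical bait that were called in both NEC replicates and no ESC replicate lay in LETR1 (18.67 and 14.36 in the merged list), at 576 kb (15.63) and 482 kb upstream (17.58) and 1425 kb downstream in LINC00923 (17.76). Those at 576 and 482 kb were also in the merged ESC list, with 13.49 and 12.84. A PIR 905 kb downstream in LINC02253 went the other way: it was called in both ESC replicates (15.2 and 13.27) and in neither NEC replicate, with 17.59 in the merged ESC list and 12.36 in the merged NEC list.

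**Figure D3:**
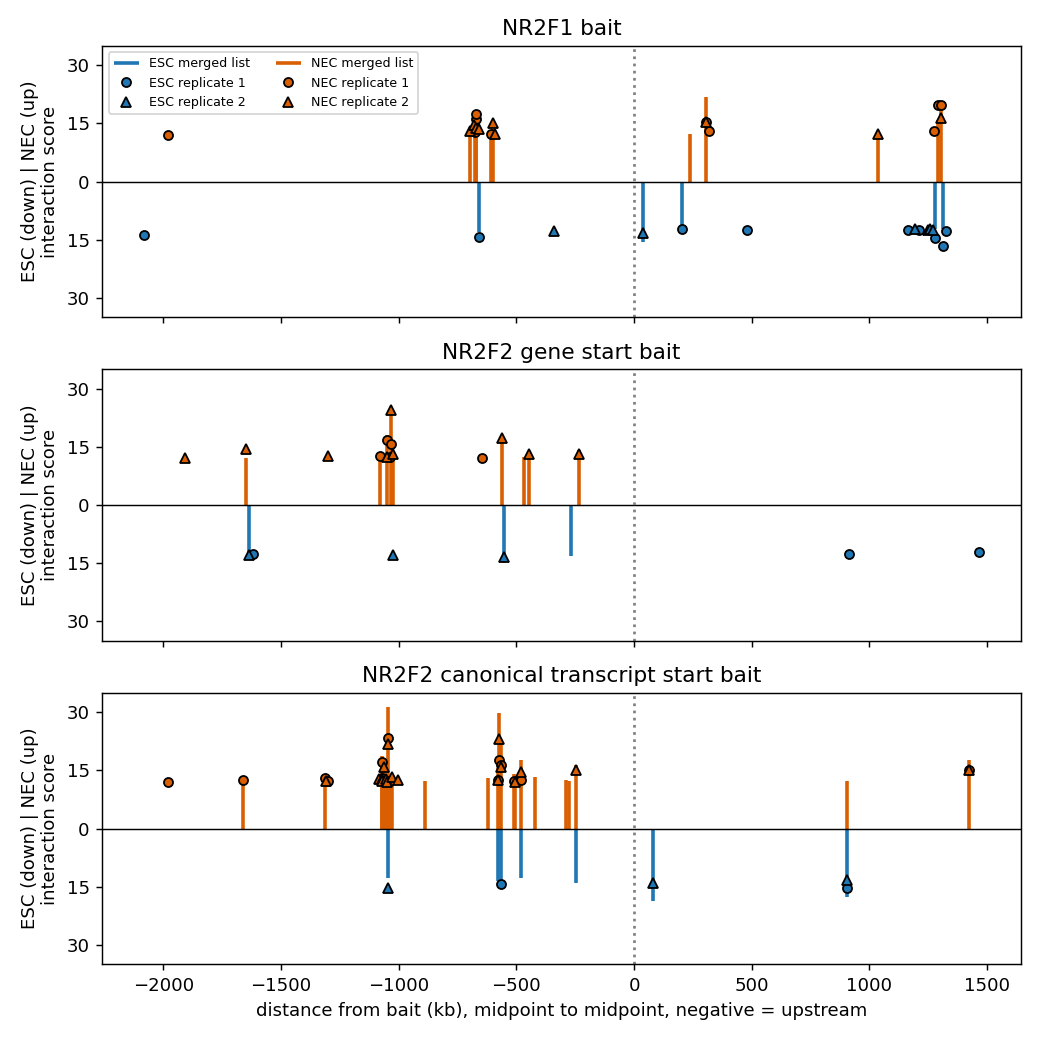
Interaction score (CHiCAGO) against distance from the bait in kb, negative upstream, for the NR2F1 bait and both NR2F2 baits, with NEC scores upwards and ESC scores downwards. Lines are merged lists, circles replicate 1 and triangles replicate 2, and the tallest NEC line reaches 31.47 at 1046 kb upstream of the canonical NR2F2 bait.

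In number, NR2F1 had 3 PIRs in both NEC replicates and in no ESC replicate, the NR2F2 gene start bait 2 and the canonical bait 6. Over all baits with a call, 20.2% had at least 1 such PIR, 2.27% had at least 3, 5.87% at least 2 and 0.38% at least 6. The opposite pattern, a PIR in both ESC replicates and no NEC replicate, was found in 21.7% of baits and for 1 PIR of the canonical NR2F2 bait, and for none of NR2F1.

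The contacts called from the NR2F1 and NR2F2 baits were long, though the ESC medians rest on 5, 3 and 7 PIRs. Median distances in ESCs and NECs were 658 and 673 kb for NR2F1, 552 and 1024 kb for the NR2F2 gene start bait, and 565 and 896 kb for the canonical bait. Over all calls on the same chromosome these medians were 197 and 217 kb, and 3.3 and 5.7% lay beyond 1000 kb. The span of bait and PIRs together was nearly the same in both cell types for NR2F1 (1977 and 2003 kb) and for the NR2F2 gene start bait (1657 and 1658 kb), and was 1955 and 3091 kb for the canonical bait. These spans depend on the most distant PIR, and in ESC replicate 1 alone they were 3412 kb for NR2F1 and 3089 kb for NR2F2.

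NR2F6's bait (chr19:17353692-17359491) had a GC content of 65.4% and no PIR in either merged list, with a single call in NEC replicate 2 (score 12.56, 604 kb away). It was called as a partner by 5 other baits, 36 to 2185 kb away, and 2 of them did so in a merged list. The bait that holds the starts of USE1 and OCEL1, 36 kb away, called it in both merged lists, with 14.01 in ESCs and 15.65 in NECs, though in no single replicate. That bait is 55559 bp long and also overlaps an exon of NR2F6 itself, so its partner is not only another promoter. The ABHD8 bait 51 kb away called the NR2F6 bait in ESCs (13.62, and 12.51 in ESC replicate 1). The other 3 baits called it in 1 replicate each: that of JAK3 at 601 kb (12.17, NEC replicate 2), that of ARRDC2 at 752 kb (12.16, ESC replicate 2) and one in GATAD2A at 2185 kb (14.14, NEC replicate 2). Whether the absence of calls reflects too few reads cannot be seen from the lists.

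Genes related to COUP-TFs by family or pathway were described from lists, each beside its median log2 fold change and the median of all genes tested, 0.01. Over all genes tested, 11.4% were called higher and 9.68% lower, the shares to set beside each count of called genes. No list was tested as a set. Among 9 other NR2 receptors, 7 were tested, 1 was called higher and none lower, with a median of 1.24. The gene called was HNF4A, the liver and gut receptor, with 0.636 and 0.607 CPM in ESCs and 1.26 and 2.80 in NECs, with 1.71 as its log2 fold change (SE 0.47, adjusted p = 0.0186). It was not called without ESC replicate 2 or without NEC replicate 2. The most abundant were the retinoid X receptor genes RXRA, with 55.5 and 59.1 CPM in ESCs and 81.7 and 80.3 in NECs, and RXRB, and the testicular receptor gene NR2C1, with 33.4 and 31.3 against 77.7 and 76.0. None of these passed the fold threshold. NR2E1, a neural stem cell receptor, had 0 and 0 counts in ESCs and 56 and 6 in NECs and was not tested.

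Of 13 coregulator genes, all tested, none was called higher and 2 were lower, with a median of −0.02. Both encode COUP-TF-interacting proteins: BCL11A (CTIP1) fell from 27.8 and 25.4 CPM in ESCs to 0.702 and 1.62 in NECs, a log2 difference of −4.48 (SE 0.31, adjusted p = 9.97e-05). BCL11B (CTIP2) fell from 6.36 and 7.00 to 1.03 and 0.851, with −2.83 (SE 0.26, adjusted p = 0.000273). Abundant coregulator genes without a call encode an acetyltransferase and a deacetylase. EP300 had 267 and 274 CPM in ESCs and 149 and 178 in NECs, and HDAC2 had 360 and 385 against 321 and 334.

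Of 15 genes of the retinoid pathway, 13 were tested, 5 were higher and 2 lower, with a median of 0.99. The receptor gene RARB rose from 2.38 and 2.51 CPM to 10.6 and 11.8 (log2 fold change 2.19, SE 0.20, adjusted p = 0.000251). Retinoic acid binding protein genes rose too: CRABP2 had 48.4 and 33.0 CPM in ESCs and 459 and 299 in NECs, and CRABP1 had 2074 and 3165 counts in ESCs and 32236 and 17324 in NECs (log2 fold changes 3.22 and 3.22). Both were higher in NEC replicate 1, as NR2F1 and NR2F2 were. The synthesis gene ALDH1A1 (3.67) and the breakdown gene CYP26B1 (3.48) also rose, while ALDH1A3, another synthesis gene, fell from 20.7 and 19.9 to 1.12 and 0.486 CPM (−4.67, SE 0.32, adjusted p = 9.54e-05). The retinal reductase gene DHRS3 fell (−2.47). CYP26A1, RARG and STRA6 were the most abundant genes without a call, with log2 fold changes of 0.81, −0.94 and 1.37.

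Of 12 genes that have been described as COUP-TF targets in other systems, 11 were tested, 4 were higher and 2 lower, with a median of 0.17. PAX6, an eye and cortex factor, rose from 1.64 and 1.13 CPM to 86.5 and 52.9 (log2 fold change 5.67, SE 0.33, adjusted p = 5.39e-05). POU5F1, the pluripotency factor, fell from 27972 and 35548 counts to 663 and 2749 (−4.35, SE 0.57, adjusted p = 0.000991), and HEY2, a Notch effector, fell by 2.21 on the log2 scale. NRP2 (1.52), EYA1 (1.62) and FOXC1 (1.81) were called higher close to the threshold, and none of these 3 was called without ESC replicate 2. NOTCH1 (0.17), OTX2 (−1.33) and E2F1 (−0.02) were the most abundant genes without a call. PAX6, POU5F1 and OTX2 are also markers of the cell types compared.

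**Figure D4:**
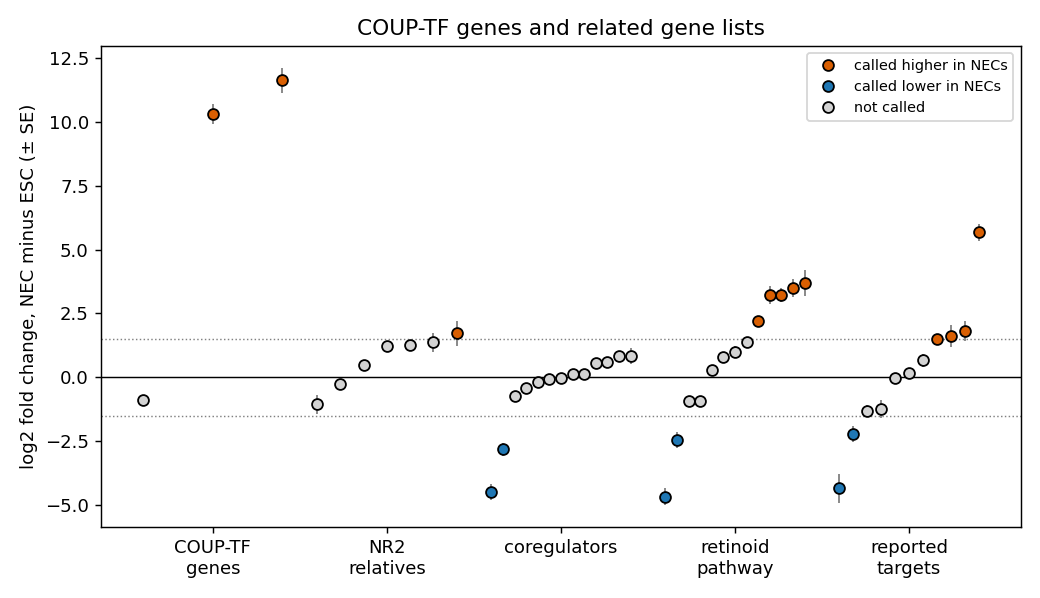
Log2 fold change between NECs and ESCs (points, whiskers 1 SE) of the COUP-TF genes and of the tested genes of 4 related lists, with dotted lines at the fold threshold of ±1.5. NR2F1 and NR2F2 stand at 11.62 and 10.31, above every gene in the lists, and BCL11A at −4.48 and ALDH1A3 at −4.67 are the lowest.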

How the data were processed

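RNA-seq was available from 2 ESC and 2 NEC libraries and PCHi-C from 2 replicates of each cell type. Conventional Hi-C was not analysed here. RNA-seq reads were trimmed by the authors, mapped to GRCh37 and counted per gene of the Ensembl v70 set in Seqmonk without strand. Their deposited counts are raw whole numbers. The submitters' processing notes name Bowtie 1.0.0 and TopHat2 2.0.8b. For PCHi-C the authors used HiCUP on GRCh37 and CHiCAGO, and the deposited scores are those of at least 12 for each replicate and for both combined. Of the columns, 0 were left without a sample or group.

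filterByExpr (minimum count 10) left 17564 of 31017 genes, which were fitted in R 4.3.3 with edgeR 4.0.16 (TMM, quasi-likelihood test, prior count 0.125). Calls needed an adjusted p (Benjamini-Hochberg) below 0.05 and a log2 fold change beyond ±1.5. The fit was first tested on simulated data with 200 changed genes. Python 3.11.15, pandas 2.3.3 and numpy 2.4.6 read the interactions, and matplotlib 3.10.9 drew the figures. A call between baits was taken from the end that the list gives first. Alternatives were DESeq2 1.42.0, other normalizations, filters and thresholds, each replicate left out, and a replicate block. The rule for named genes took the members, genes within 1 Mb or starting in a PIR that were called or antisense, the 3 nearest in pattern and, of each related list, those called and up to 3 of the most abundant others. One gene that this rule names is not reported here. The 4 marker lists are given by counts and sums, and ETS1 is named for its part in a sum. The members and the gene lists were chosen with earlier results of these data known. Beyond the label of biological replicate nothing says how replicates were derived. The p-values set the difference between cell types against the spread between these replicates, moderated across genes, and cover no other samples.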

Additional observations from a re-analysis of the deposited data

How the results depend on the processing

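Over all alternatives 283 values of the results kept within their spread (counts within 1.5 times) and 62 moved further. Values that stayed at 0 are among those kept. Reversal was defined only for the log2 fold changes of the members, and none of these reversed. With DESeq2's shrunken fold changes the log2 fold change was 9.19 for NR2F1 and 8.38 for NR2F2. A minimum count of 50 gave 1098 lower genes. Dropping the fold threshold gave 5529 higher and 5209 lower genes, 5 higher and 1 lower NR2 relatives, 2 and 4 coregulators, 8 and 4 retinoid genes, 4 lower reported targets and 1 lower neuroectoderm marker. NR2 relatives called higher numbered 0 with shrunken fold changes or a minimum count of 50 and 2 without a filter. Reported targets called higher numbered 2 with DESeq2's unshrunken and 1 with its shrunken fold changes. Lower mesendoderm markers numbered 5 with a minimum count of 50, which leaves fewer genes tested, and lower neural crest markers 2 without a filter. The cause of the other changes was not tested.

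A score of at least 15 left 1 ESC and 5 NEC PIRs for NR2F1, 0 and 3 for the NR2F2 gene start bait, and 2 and 9 for the canonical bait, none of them shared (0). The span then fell to 45 kb for NR2F1 in ESCs, to 0 kb and 1064 kb for the NR2F2 gene start bait in ESCs and NECs, and to 910 kb for the canonical bait in ESCs. Without the most distant PIR the NR2F2 gene start bait spanned 566 kb (ESCs) and 1094 kb (NECs). Within 10 kb, 4 NEC PIRs of NR2F1, 2 of the NR2F2 gene start bait and 11 of the canonical bait, which was added after seeing the data, were shared.

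Leaving out each replicate in turn, the log2 fold change of NR2F1 lay between 10.86 and 14.78. Calls lay between 1 and 2 higher NR2 relatives, 1 and 4 higher and 2 and 4 lower reported targets, 0 and 1 lower neuroectoderm markers, 5 and 9 lower mesendoderm markers (5 without ESC replicate 2), and 1 and 3 lower neural crest markers (3 without NEC replicate 1). A single replicate list gave 6 to 9 ESC PIRs for NR2F1, 5 to 9 NEC PIRs for the NR2F2 gene start bait, 2 to 3 ESC and 15 to 17 NEC PIRs for the canonical bait, and 0 to 1 NEC PIRs for NR2F6. Shared PIRs then numbered 0 to 1 for NR2F1 and for the NR2F2 gene start bait and 2 to 5 for the canonical bait. Spans ranged from 1615 to 3412 kb (ESCs) and 2003 to 3287 kb (NECs) for NR2F1, from 1657 to 3089 kb and 1094 to 1918 kb for the NR2F2 gene start bait, and from 0 to 610 kb for NR2F6 in NECs. The lists give no read numbers, so what depth limits in the PIR counts is unknown, and in RNA the 2 and 3 ESC counts limit the folds of NR2F1 and NR2F2.

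The deviations of ESC and NEC libraries with the same replicate number were weakly correlated (0.074 over 17564 genes). With 2 replicates per cell type this cannot show whether the libraries were paired. With the replicate block 2 neural crest markers were lower instead of 1, and no other count or member value moved beyond its spread. No paired analysis was possible for the PIR results because they come from no test.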
